A study of Mus musculus with 12 samples.

Results

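The carbonic anhydrase family was examined in dissected CA1 tissue of the mouse hippocampus, for 8 member genes of 48709 gene IDs counted in each library: Car12, Car14, Car4, Car2, Car7, Car8, Car10 and Car11. The series held 12 libraries of polyadenylated RNA, 6 from mice whose coronary artery was ligated to give a myocardial infarction (MI) and 6 from mice that had similar surgery without ligation (Sham). The sources used here give no strain, age, sex or time from surgery to dissection. Nor do they say that libraries are from different mice, so errors and p-values reflect only how these libraries varied, which may be technical. The members were chosen by the difference of Car12 between MI and Sham, with 7 further genes of its family placed beside it. The contrast of MI with Sham was therefore used in choosing the members, and their differences and intervals in that contrast are a description. Counts of members past a threshold there stand beside the share of all genes, and nothing is read from them.

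Carbonic anhydrases interconvert carbon dioxide and bicarbonate and so set how fast protons are buffered inside and outside cells. In hippocampus, membrane-bound forms with an extracellular catalytic site (Car4 and Car14) take part in buffering the extracellular space around synapses, and the cytosolic form Car7 supplies the bicarbonate that leaves neurons through GABA-A receptors. Car2 is the cytosolic enzyme typical of oligodendrocytes and of choroid plexus, and Car12 is a transmembrane enzyme known from epithelia and from hypoxic tumours. Car8, Car10 and Car11 are carbonic anhydrase-related proteins without the enzyme activity: Car8 binds the inositol trisphosphate receptor Itpr1, and Car10 and Car11 are secreted proteins, with neurexins as known partners.

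The catalytic zinc ion is held by histidines, and the codons at those places separate the enzymes from the related proteins. The coding stretches below, from GENCODE M21 transcripts and 5′ to 3′ on the coding strand, align to codons 91 to 99 of Car2; capitals mark the codons aligned to codons 94 and 96 of Car2, the first and second zinc-binding histidines.
Car2: atccagtttCACtttCACtggggctca
Car7: aagcagctcCACttcCACtggggcaag
Car12: gagcagctgCACttgCACtgggggaac
Car14: gcccagctcCACctgCACtggggtcag
Car4: gtacagttgCACctgCACtggtcaaat
Car8: tatgaagttAGAtttCACtggggaaga
Car10: gaagaaatcCGGctaCACtttgggagt
Car11: agtgaactgCGCctgCTAtttggagct
With the third site (codon 119 of Car2), a histidine codon stood at 3 of 3 places in Car2, Car7, Car12, Car14 and Car4. Car8 kept 2 of 3, Car10 kept 1 and Car11 kept 0, so the 3 acatalytic members differ among themselves in how much of the site is left. The stretches lie at chr3:14895060-14895086 (Car2), chr8:104547725-104547751 (Car7), chr9:66747638-66747664 (Car12), chr3:95900300-95900326 (Car14), chr11:84964158-84964184 (Car4), chr4:8221604-8221630 (Car8), chr11:93490597-93490623 (Car10) and chr7:45702539-45702565 (Car11) of mm10, with Car14 and Car8 on the minus strand and the others on the plus strand. Over aligned codons, Car7 shared the Car2 residue at 55.0% of 260 places and Car8 at 41.9% of 253, while Car12 shared it at 36.3%, Car14 at 36.1%, Car4 at 32.9% and Car10 at 32.8%, with Car11 below these.

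Library totals ran from 20764133 to 35643127 counts. The labelled tissue was checked against marker lists. All 7 CA1 pyramidal neuron markers were detected, with a summed level of 1288 to 1621 CPM (counts per 1000000 of the TMM-scaled library size) in MI and 879.8 to 1905 in Sham. Markers of neighbouring tissue varied between libraries: the 7 dentate granule cell markers summed to 124.1 to 441.7 CPM in MI and 165.0 to 1111 in Sham, with Sham 6 highest, and the 8 fibroblast and meningeal markers to 102.3 to 198.2 CPM in MI and 74.8 to 376.8 in Sham, with Sham 1 highest. The labels give no sex, but counts of Y-linked genes exceeded those of Xist in 3 libraries of each group (MI 1, MI 3, MI 4, Sham 1, Sham 2 and Sham 3). Both kinds of library are given apart below for some members. Whether the differences between MI and Sham depend on them is tested below as an interaction. In tissue samples such as these, fewer cells of a type and less RNA per cell cannot be told apart.

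Levels per length spanned a wide range, and the 2 most abundant members were an acatalytic protein and a cytosolic enzyme. In CPM per kilobase of merged exon, the median level over the 12 libraries was 70.2 for Car11 (63.4 to 85.1) and 63.0 for Car2 (45.8 to 72.4). Car4 followed at 11.9 (10.6 to 19.3), then Car7 at 6.86 (5.39 to 9.97) and Car10 at 6.81 (2.44 to 21.1). Car12 stood at 3.64 (2.36 to 6.49), Car14 at 2.88 (1.79 to 3.97) and Car8 at 1.40 (1.02 to 2.55). The ranges of Car2 and Car4, and of Car4 and Car7, did not overlap; the ranges of every other neighbouring pair in this order overlapped. Within single libraries, Car14 was above Car8 in 12 of 12 and Car11 above Car2 in 11 of 12, while Car7 was above Car10 in 6 of 12, Car10 above Car12 in 9 and Car12 above Car14 in 10. The order depends in part on the length used. With the longest transcript, Car10 (13.0) came just above Car7 (12.8), Car12 was 7.44 in place of 3.64, and Car11 was above Car2 in 7 of 12 libraries. The ranges of Car4 (from 16.5) and Car7 (to 18.7) then overlapped, and those of Car14 (from 2.67) and Car8 (to 2.55) did not.

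**Figure D1:**
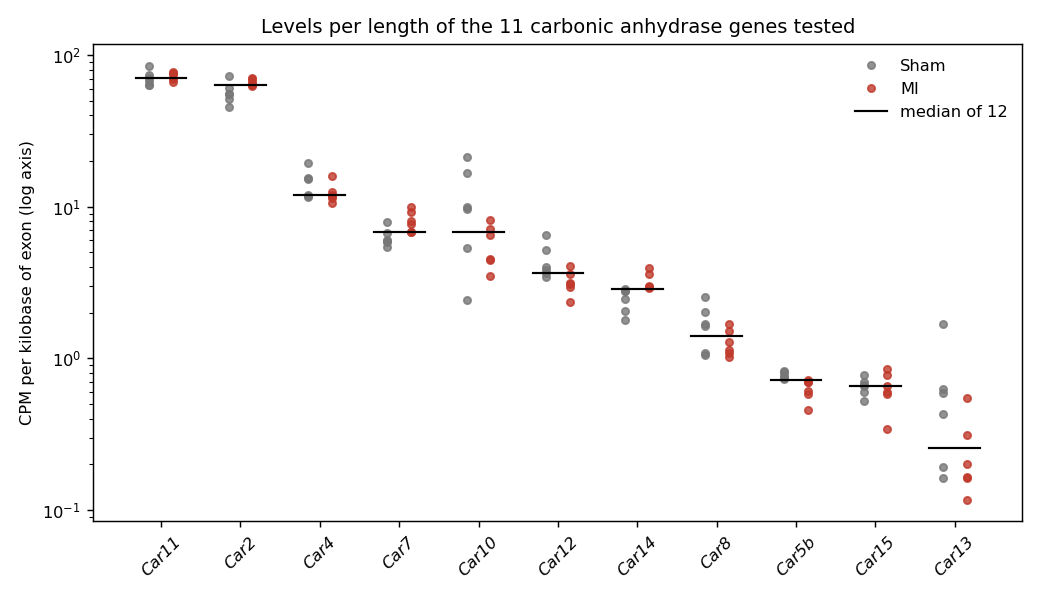
Levels of the 11 carbonic anhydrase genes tested, in CPM per kilobase of merged exon on a log axis, with 1 point per library (grey Sham, red MI, 6 each) and a bar at the median of the 12 libraries. Car11 (median 70.2) and Car2 (63.0) stand above Car4 (11.9), and Car10 has the widest spread of the 8 members, from 2.44 to 21.1.

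Of the other 8 carbonic anhydrase genes, 3 were abundant enough to be tested. Car5b, a mitochondrial enzyme, had a median of 0.72 CPM per kilobase, Car15 0.66 and Car13, a cytosolic enzyme, 0.26. The remaining 5 had few counts over all 12 libraries: 55 for Car9, a hypoxia-induced membrane enzyme, 47 for Car3, 29 for Car5a, 5 for Car6 and 4 for Car1. At 0 to 16 counts per library, a difference in these 5 was not detectable.

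Car12 (ENSMUSG00000032373, chromosome 9, 66713686 to 66766845, mm10) had lower mean counts in MI. Its lowest, median and highest values were 17.9, 23.8 and 31.0 CPM in MI and 26.1, 29.7 and 49.3 CPM in Sham. The groups overlapped: 4 of 6 MI libraries lay below every Sham library, but MI 4, at 31.0, lay above Sham 1, Sham 2, Sham 3 and Sham 4. The upper end of Sham was set by Sham 6 (49.3) and Sham 5 (39.2), and the lower end of MI by MI 1 (17.9). The 6 MI libraries averaged 24.4 ± 4.43 CPM (SD) and the 6 Sham libraries 33.6 ± 8.92 CPM (SD), which gave a log2 fold change of -0.46 (SE 0.17, 95% interval -0.82 to -0.10), MI minus Sham. It was -0.32 without Sham 6, -0.27 in the Y-linked kind of library alone and -0.63 in the Xist kind. In the quasi-likelihood test of edgeR over 16829 genes, 0 of the 8 members passed an adjusted p of 0.05, as did 0% of all genes; DESeq2 and limma-voom also called 0 of the 8. At an unadjusted p of 0.05, 5 of the 8 passed, beside 7.55% of all genes, from which nothing is read because this contrast chose the members.

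**Figure D2:**
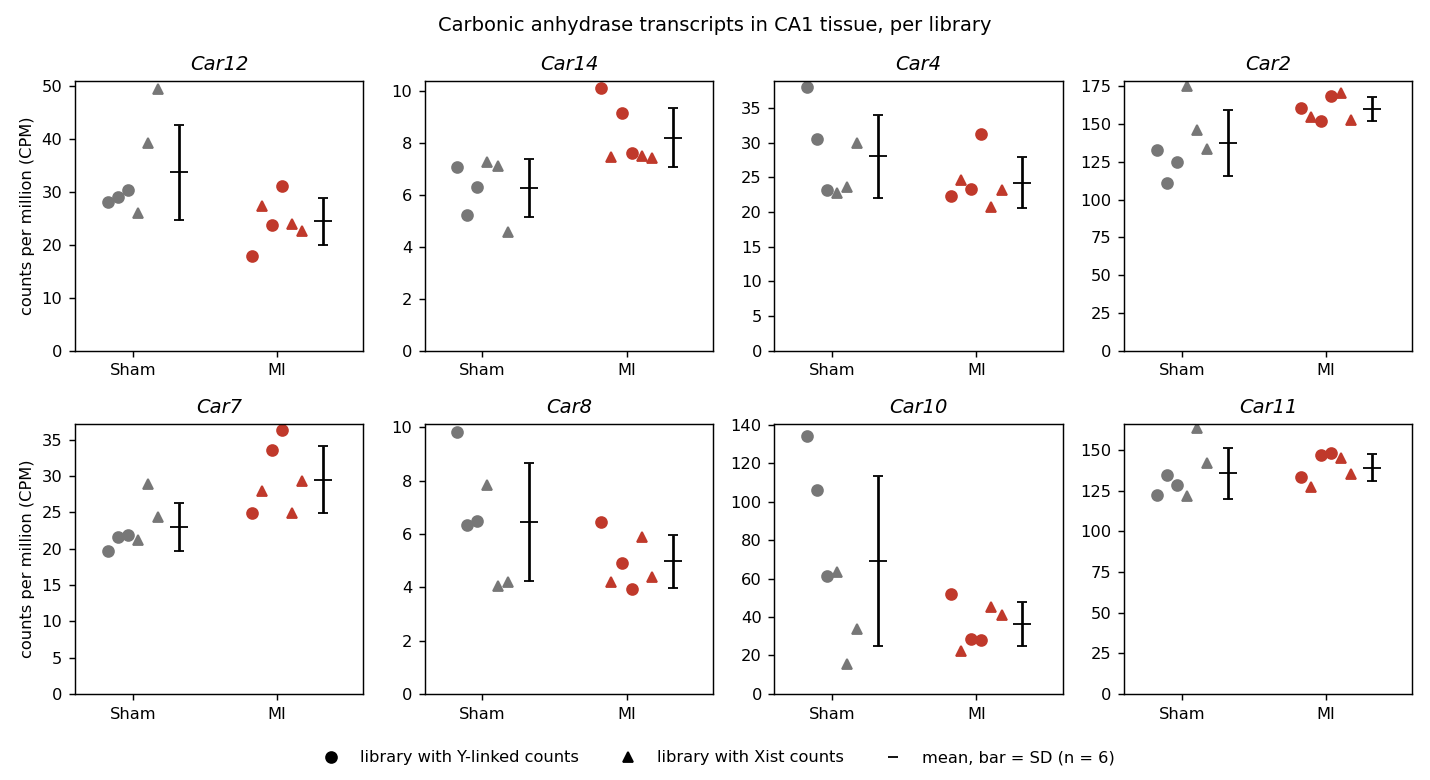
Level of each member in CPM (vertical axis from 0), 1 point per library, Sham in grey and MI in red, circles for libraries with Y-linked counts and triangles for those with Xist, with the mean and SD of 6 libraries at the side. Car14 is the panel in which all MI points lie above all Sham points, and Car10 is the panel in which Sham spreads from 15.5 to 134.3 CPM.

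The authors' deposited values for Car12 were far tighter within groups than the counts. Among the genes listed as lower in the authors' deposited table, Car12 has a log2 fold change of -0.43 and an adjusted p of 0.00107, tied for first of 517 genes. The deposited log2 values per library ran from 8.68 to 8.95 in MI and from 9.19 to 9.32 in Sham, with no overlap between groups. Their SD within groups was 0.11 in MI and 0.05 in Sham, while the log2 CPM of the same libraries had SDs of 0.27 and 0.35. Sham 6, the highest library by counts, has a deposited value next to the lowest of the Sham libraries. The sources used here do not say how the deposited values were made.

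The authors' deposited tables hold 3 of the 8 members, and 6.09% of the genes tested here. Besides Car12, the authors' deposited table of higher genes lists Car7 with a log2 fold change of 0.19 (adjusted p 0.0277) and Car14 with 0.20 (adjusted p 0.0382). For Car7 the deposited values overlapped between groups (MI 9.29 to 9.54, Sham 9.15 to 9.32), as did those for Car14 (MI 8.57 to 8.77, Sham 8.25 to 8.57). In the counts, the log2 fold changes of Car7 (0.36) and Car14 (0.39) were larger than the deposited ones.

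**Figure D3:**
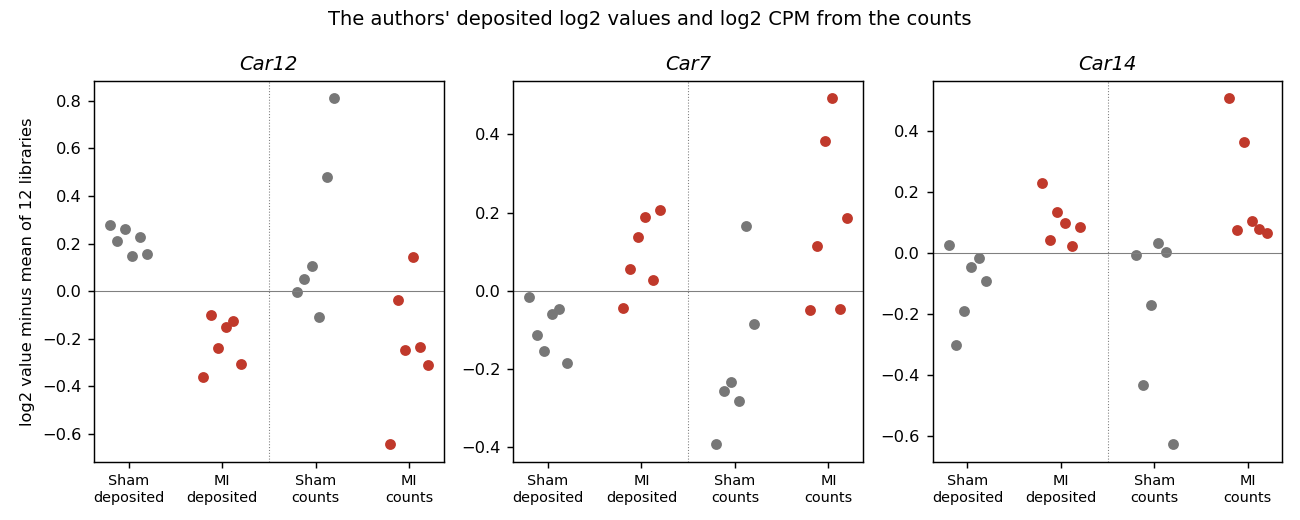
Log2 values of Car12, Car7 and Car14 minus their mean over 12 libraries (vertical axis), with the authors' deposited values on the left and log2 CPM from the counts on the right of each panel, 1 point per library, Sham in grey and MI in red. For Car12 the deposited values separate the groups (MI 8.68 to 8.95, Sham 9.19 to 9.32 before centring), while the values from the counts overlap.

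Among the other membrane-bound enzymes, Car14 differed from Car12 in direction. Car14 (ENSMUSG00000038526, chromosome 3, 95897768 to 95904691) encodes a transmembrane enzyme with an extracellular site. Its lowest, median and highest values were 7.41, 7.55 and 10.1 CPM in MI and 4.56, 6.67 and 7.25 CPM in Sham. All 6 MI libraries lay above all 6 Sham libraries, the sole member without overlap (1 of 8, where 0.41% of all genes do not overlap). The means were 8.21 ± 1.14 and 6.25 ± 1.12 CPM, a log2 fold change of 0.39 (SE 0.13, 95% interval 0.12 to 0.66). The gap between the groups was narrow, from 7.25 in Sham 4 to 7.41 in MI 6. The log2 fold change was 0.53 in the Y-linked kind of library and 0.24 in the Xist kind. The gene had 97 to 251 counts per library, and 445 of its 2543 exon bases are also exon of Aph1a on the opposite strand, so with the strand setting of the counting not given, reads there may not be told apart; Aph1a itself had a log2 fold change of 0.05 (SE 0.11).

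Car4, the lipid-anchored enzyme of capillary endothelium and neuronal surfaces, overlapped between groups. Its lowest, median and highest values were 20.8, 23.2 and 31.3 CPM in MI and 22.8, 26.8 and 38.0 CPM in Sham, with Sham 1 and MI 4 highest in their groups. The log2 fold change was -0.21 (SE 0.13, 95% interval -0.50 to 0.08), and it was -0.10 without Sham 1 and -0.30 without MI 4. With the myelin score as a covariate it was 0.04, though that score was itself higher on average in MI.

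The cytosolic enzymes Car7 and Car2 were higher on average in MI, each with overlap. Car7 (ENSMUSG00000031883, chromosome 8, 104534689 to 104550343) had 24.9, 28.6 and 36.3 CPM as lowest, median and highest values in MI and 19.6, 21.7 and 28.9 in Sham. Each of the 6 MI values exceeded the median of Sham, and the overlap came from Sham 5, at 28.9. The means were 29.5 ± 4.62 and 22.9 ± 3.31 CPM, a log2 fold change of 0.36 (SE 0.11, 95% interval 0.12 to 0.60). Among libraries of the Y-linked kind alone the difference was 0.58, and among those of the Xist kind alone 0.15.

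Car2 (ENSMUSG00000027562, chromosome 3, 14886273 to 14900770) had 152.3, 157.7 and 170.6 CPM as lowest, median and highest values in MI and 110.8, 133.3 and 175.3 in Sham. The MI libraries lay close together, with an SD of 8.11 CPM against 21.9 in Sham, and Sham 4 (175.3) was the highest of all 12. The log2 fold change was 0.22 (SE 0.09, 95% interval 0.03 to 0.41), with 0.38 for the Y-linked kind of library and 0.07 for the Xist kind. Car2 is itself an oligodendrocyte gene. The 12 myelin markers summed to 5172 to 6530 CPM in MI and 2811 to 5709 in Sham, and all 12 had log2 fold changes above 0 (median 0.495). With their score as a covariate the Car2 value was -0.02. That score was itself higher on average in MI, and its part in the Car2 difference was not tested.

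Of the acatalytic members, Car10 and Car8 were lower on average in MI and Car11 was level. Car10 (ENSMUSG00000056158, chromosome 11, 93098028 to 93601749) had 22.2, 35.0 and 51.8 CPM as lowest, median and highest values in MI and 15.5, 62.2 and 134.3 in Sham. Its lowest library and its highest were both Sham libraries, Sham 5 at 15.5 and Sham 1 at 134.3, and Sham 2 stood at 105.8. The log2 fold change was the largest of the members in size, -0.93 (SE 0.42, 95% interval -1.84 to -0.01). It was -0.63 without Sham 1 and -0.26 without Sham 1 and Sham 2, an exclusion chosen after the values were seen. For the Y-linked kind of library alone it was -1.48, and for the Xist kind -0.05.

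Car8 (ENSMUSG00000041261, chromosome 4, 8143362 to 8239041) had 3.94, 4.66 and 6.46 CPM as lowest, median and highest values in MI and 4.04, 6.41 and 9.82 in Sham. The highest library was again Sham 1, and Sham 5 and Sham 6, at 4.04 and 4.18, lay within the MI range. The log2 fold change was -0.38 (SE 0.21, 95% interval -0.84 to 0.08), from 89 to 222 counts per library, and it was -0.22 without Sham 1. In the Y-linked kind of library it was -0.57, and in the Xist kind -0.15. Car11 (ENSMUSG00000003273, chromosome 7, 45699843 to 45704682) had 127.1, 140.2 and 148.1 CPM in MI and 122.1, 132.0 and 163.8 CPM in Sham. Its log2 fold change was 0.04 (SE 0.07, 95% interval -0.12 to 0.19), the narrowest interval of the 8; it was -0.07 in the Xist libraries alone and -0.03 with the dentate and meningeal scores as covariates.

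Over the 8 members, 4 log2 fold changes were above 0 and 4 below, with a median of -0.09 beside -0.01 over all genes tested. Whether the difference between MI and Sham itself differed between libraries with Y-linked counts and those with Xist was tested as an interaction over all 16829 genes. By edgeR 0 of the 8 members passed an adjusted p of 0.05, beside 0.0119% of all genes, and limma-voom also called 0. At an unadjusted p of 0.05 by edgeR 2 passed, beside 8.24% of all genes. Those were Car7, with a difference of differences of 0.44 (SE 0.20, edgeR adjusted p 0.600), and Car2, with 0.31 (SE 0.14, edgeR adjusted p 0.601). Car10 had the largest value, -1.43, with the widest interval (-2.98 to 0.13, edgeR adjusted p 0.615).

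**Figure D4:**
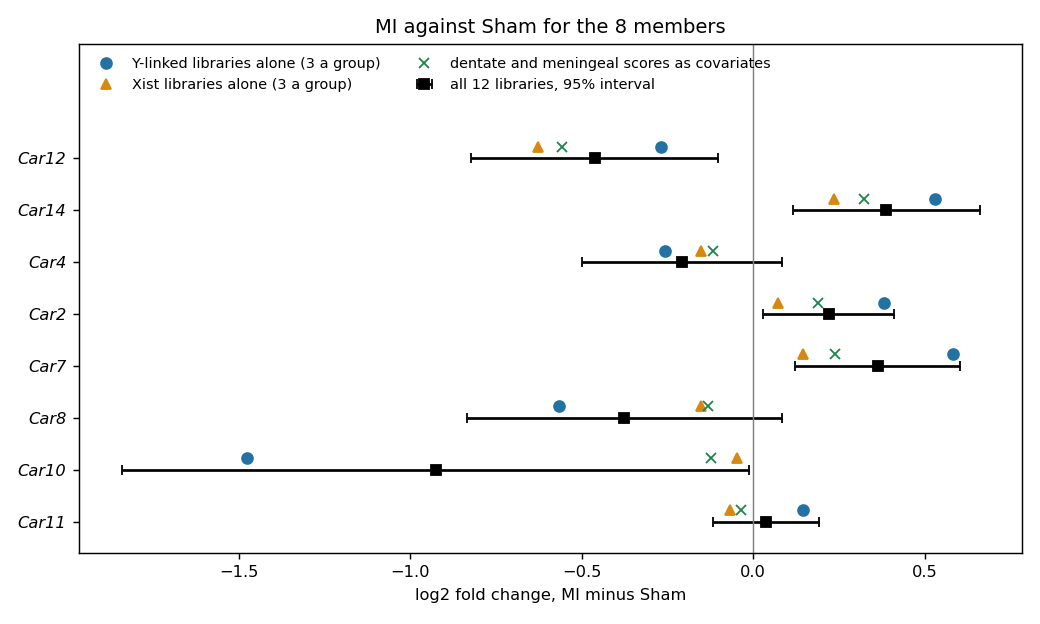
Log2 fold change of each member, MI minus Sham (horizontal axis), as squares with 95% intervals over all 12 libraries; circles and triangles give the libraries with Y-linked counts and with Xist alone (3 a group) and crosses the fit with dentate and meningeal scores as covariates. Car10 moves from -0.93 to -1.48, -0.05 and -0.12 in these fits, while Car12 lies between -0.63 and -0.27.

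How the members varied with cell type composition was described by correlating their log2 CPM with the mean log2 CPM of 13 marker lists over the 12 libraries, 104 relations in all. By Pearson's r, 9 relations had an adjusted p under 0.05 (permutation test with 100000 resamples). By Spearman's rho 0 did, the smallest adjusted p being 0.0502, with 21 relations at an unadjusted p under 0.05. Group was not held fixed in the permutations, so each r and p includes the difference of MI from Sham that chose the members. No p free of that difference was computed. The share of such relations among all genes was not computed either, so nothing about the family is read from their count. Of the 9 relations, 8 had the same sign within MI and within Sham. Car2 followed the myelin markers with r = 0.88 (permutation p 0.0002, adjusted 0.00693; rho 0.76, permutation p 0.00555, adjusted 0.0640). Without Sham 1 and Sham 2, the libraries farthest from the median score, r was 0.81. The relation held within Sham (r = 0.87) but not within MI (r = -0.02). The myelin score ran from 0.12 to 0.43 in MI and from -0.72 to 0.26 in Sham. Car2 also varied with the oligodendrocyte precursor markers (r = 0.67, permutation p 0.0174, adjusted 0.105, and rho 0.82, permutation p 0.00193, adjusted 0.0502). That r was 0.70 within MI, 0.72 within Sham and 0.90 without MI 6 and Sham 1.

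Car10 and Car8 followed the fibroblast and meningeal markers, and Car7 ran against them. For Car10 r was 0.88 (permutation p 7e-05, adjusted 0.00572; rho 0.84, permutation p 0.00107, adjusted 0.0502), with 0.56 within MI, 0.93 within Sham and 0.735 without Sham 1 and Sham 2. For Car8 r was 0.81 (permutation p 0.00155, adjusted 0.0230; rho 0.76, permutation p 0.00615, adjusted 0.0640), with 0.15 within MI, 0.95 within Sham and 0.645 without the same libraries. For Car7 r was -0.77 (permutation p 0.00328, adjusted 0.0426; rho -0.76, permutation p 0.00526, adjusted 0.0640), with -0.54 within MI, -0.88 within Sham and -0.64 without them. The meningeal score of Sham 1 was 1.58 log2 units above the mean of all libraries and that of Sham 2 was 0.80 above it; the log2 fold changes of all 8 meningeal markers were below 0 (median -0.81). With the dentate and meningeal scores as covariates, the log2 fold change was -0.12 for Car10, -0.13 for Car8 and 0.24 for Car7. With the myelin score as the covariate instead, it was -0.09 for Car10, -0.23 for Car8 and 0.28 for Car7. The meningeal and myelin scores both differed on average between MI and Sham, and their separate parts were not tested. Car10 also ran against the CA1 pyramidal markers (r = -0.81, permutation p 0.00128, adjusted 0.0230; rho -0.76, permutation p 0.00590, adjusted 0.0640), at -0.47 within MI, -0.81 within Sham and -0.53 without Sham 1 and Sham 5. The remaining relations past the threshold were those of Car8 (r = -0.80) and Car10 (r = -0.76) with the choroid plexus list. Of that list 3 of 7 markers were tested, and Folr1, Clic6, Kcne2 and Otx2 were too low to test. For Car8 the permutation p was 0.00155 (adjusted 0.0230), with rho -0.64 (permutation p 0.0283, adjusted 0.170). Its r was -0.32 within MI, -0.85 within Sham and -0.70 without Sham 1 and Sham 3. For Car10 the permutation p was 0.00431 (adjusted 0.0498), with rho -0.73 (permutation p 0.00855, adjusted 0.0741). Its r was -0.62 within MI, -0.72 within Sham and -0.67 without Sham 1 and Sham 3. Of the markers tested, Aqp1 averaged 0.44 CPM in each group.

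Car12 and Car14 had opposite relations to the interneuron markers. For Car12 r was -0.84 (permutation p 0.00100, adjusted 0.0230; rho -0.84, permutation p 0.00126, adjusted 0.0502), with -0.89 within MI, -0.83 within Sham and -0.77 without Sham 2 and Sham 6. For Car14 r was 0.88 (permutation p 0.00011, adjusted 0.00572; rho 0.71, permutation p 0.0129, adjusted 0.102), with 0.81 within MI, 0.93 within Sham and 0.73 without the same libraries. The 8 interneuron markers summed to 925.7 to 987.5 CPM in MI and 729.8 to 1012 CPM in Sham, and 5 of 8 had positive log2 fold changes. Their score varied little within MI, from 0.01 to 0.17 log2 units above the mean of all libraries. Car12 had r = 0.63 with the dentate granule cell markers (permutation p 0.0279, adjusted 0.137; rho 0.36, permutation p 0.245, adjusted 0.555). It was 0.66 within MI and 0.875 within Sham, values that include MI 1 and Sham 6. Without MI 1 and Sham 6, r over the remaining libraries was -0.03, so the value over all libraries rests on them. With the dentate and meningeal scores as covariates, the Car12 log2 fold change was -0.56. The part of these markers in the differences between MI and Sham was not tested beyond the fits with scores as covariates.

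**Figure D5:**
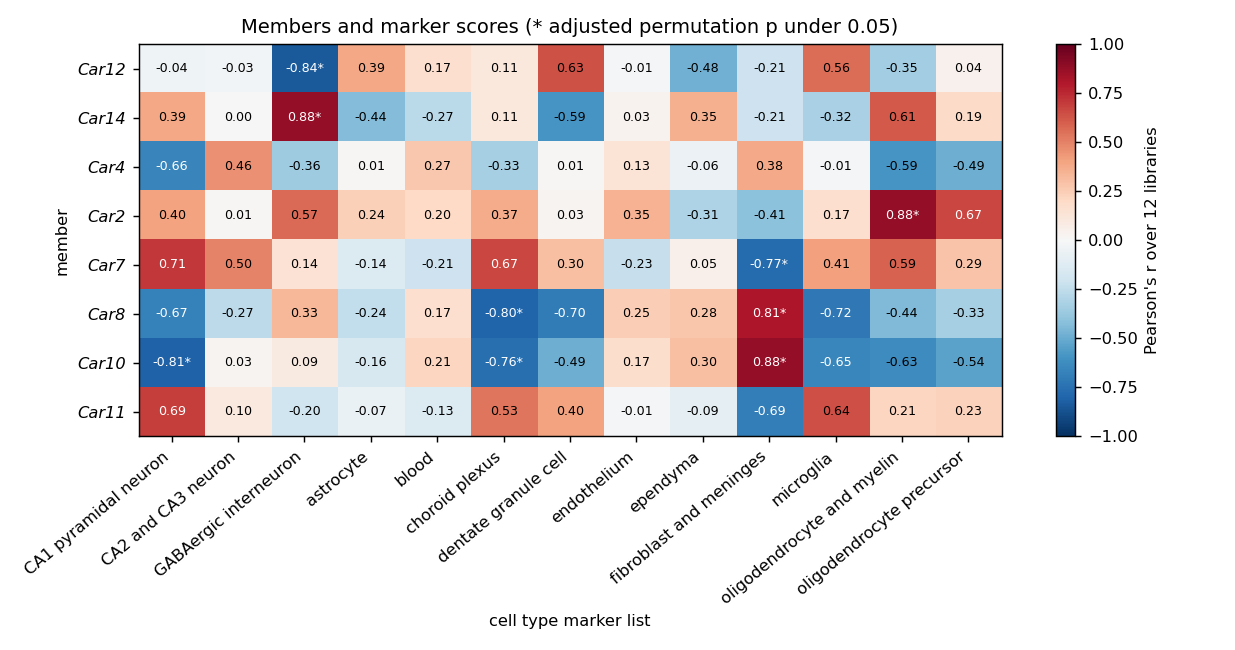
Pearson's r over 12 libraries between log2 CPM of each member (rows) and the mean log2 CPM of each marker list (columns), red for positive and blue for negative, with an asterisk where the permutation p adjusted over 104 relations is under 0.05. Car2 stands at 0.88 with the myelin list, Car10 at 0.88 with the fibroblast and meningeal list, and Car12 (-0.84) and Car14 (0.88) are opposite for the interneuron list.

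Members also varied with each other. Of 28 pairs, 4 had an adjusted p under 0.05 by Pearson's r and 5 by Spearman's rho (permutation tests). These values also include the difference of MI from Sham that chose the members. The share among all pairs of genes was not computed, so nothing about the family is read from the counts of pairs. Car8 and Car10 went together with r = 0.88 (permutation p 0.00014, adjusted 0.00392; rho 0.90, permutation p 0.00022, adjusted 0.00616), at 0.79 within MI, 0.87 within Sham and 0.82 without Sham 1 and Sham 4. Car7 went against both, with r = -0.81 for Car8 (permutation p 0.00136, adjusted 0.0190; rho -0.79, permutation p 0.00289, adjusted 0.0270) and -0.78 for Car10 (permutation p 0.00247, adjusted 0.0231; rho -0.83, permutation p 0.00121, adjusted 0.0169), and without MI 3 and MI 4 these were -0.88 and -0.86. Within MI they were -0.75 and -0.62, and within Sham -0.91 and -0.96. Car12 and Car14 had r = -0.79 (permutation p 0.00361, adjusted 0.0253; rho -0.67, permutation p 0.0198, adjusted 0.0756), at -0.71 within MI and -0.60 within Sham, but -0.37 without MI 1 and Sham 6, so that relation rests on those libraries.

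The genes whose pattern over the 12 libraries was most like each member, by Pearson's r of log2 CPM among genes with a mean of at least 50 counts, are a description of these libraries. For Car12 they were Bcl7a (0.92), Ifnar2 (0.91) and Celf1 (0.90), with 0.88, 0.93 and 0.87 for deviations from the group means. For Car2 they were Ugt8a (0.94), which makes the galactolipids of myelin, Enpp6 (0.94), a marker of newly formed oligodendrocytes, and Aspa (0.94), the aspartoacylase of oligodendrocytes. For Car10 they were Igfn1 (0.99), Fam149a (0.97) and Camk2d (0.97), and for Car8 Kank4 (0.94), Rgs17 (0.94) and Plagl1 (0.94). For Car7 they were Alas1 (0.96), Brinp1 (0.95) and Ddx54 (0.94), for Car11 Mageh1 (0.96), Ptms (0.95) and Dalrd3 (0.94), for Car4 Cpxm1 (0.95), Manf (0.94) and 2700099C18Rik (0.93), and for Car14 Kcnab3 (0.94), Stk39 (0.93) and Epb41l3 (0.93).

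Among the other carbonic anhydrases, Car5b had values of 2.91 to 4.58 CPM in MI and 4.63 to 5.22 CPM in Sham. The groups did not overlap, as in 0.41% of all genes, and the gap was narrow, from 4.58 in MI 6 to 4.63 in Sham 5. Car5b had a log2 fold change of -0.29 (SE 0.11, edgeR adjusted p 0.597). Car13 had 0.27 to 1.27 CPM in MI and 0.38 to 3.87 in Sham, highest in Sham 1 as Car10 and Car8 were, and a log2 fold change of -1.21 (SE 0.56, edgeR adjusted p 0.667). Car15, an enzyme anchored at the membrane, had 0.65 to 1.61 CPM in MI and 0.99 to 1.48 in Sham, and a log2 fold change of -0.04 (SE 0.19).

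Partners of the carbonic anhydrases did not pass the test. Of 59 genes in 7 lists, 53 were tested; edgeR, DESeq2 and limma-voom each called 0 at an adjusted p of 0.05. At an unadjusted p of 0.05 edgeR gave 4 (7.55%, the share of all genes), 2 higher and 2 lower, DESeq2 gave 6 (11.3%, beside 7.75% of all genes) and limma-voom 7 (13.2%, beside 11% of all genes). The authors' deposited tables list 5 of the 53 partners tested, beside 6.09% of all genes tested. Itpr3, Cntn4 and Cntn6 are listed as higher, and Ptprg and Aqp4 as lower. In the counts, the log2 fold change was 0.22 (SE 0.19) for Cntn4, 0.21 (SE 0.27) for Cntn6 and -0.08 (SE 0.10) for Ptprg. Values of Itpr3 and Aqp4 are given below. Of the bicarbonate transporters 9 of 14 were tested, with a median log2 fold change of -0.05. The smallest p among them belonged to Slc26a7, an anion exchanger, with 0.61 ± 0.51 CPM in MI and 2.31 ± 2.23 in Sham (log2 fold change -1.82, SE 0.71, edgeR adjusted p 0.614), and Slc4a2, a chloride-bicarbonate exchanger, with 30.5 ± 2.06 and 27.3 ± 2.92 CPM (0.16, SE 0.07, edgeR adjusted p 0.640). The proton and lactate transporters (14 tested) had a median of 0.02, with Slc16a7, a monocarboxylate transporter, at -0.17 (SE 0.11) and Slc9a5, a sodium-proton exchanger, at -0.27 (SE 0.17). The chloride cotransporters (5 tested) had a median of 0.01, with Slc12a7, a potassium-chloride cotransporter, at -0.34 (SE 0.16).

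The lists of binding partners, pH sensors and glial channels had medians near 0, with single genes farther from it. The neurexins and inositol trisphosphate receptors (6 tested) had a median of 0.06, with Itpr3 at 0.32 (SE 0.18). Of the receptor phosphatases with a carbonic anhydrase-like domain and the contactins (8 tested, median -0.01), Cntn2, an axonal contactin, had 178.1 ± 15.5 CPM in MI and 151.4 ± 23.7 in Sham (0.23, SE 0.10, edgeR adjusted p 0.624) and Ptprz1 had -0.11 (SE 0.08). The acid and bicarbonate sensors (7 of 8 tested, median -0.07) had the acid-sensing channel genes Asic4 at -0.31 (SE 0.16) and Asic2 at 0.13 (SE 0.07). Of the glial water and potassium channels (4 tested, median -0.03), Aqp4, which carries water across astrocyte membranes, had 130.7 ± 13.3 CPM in MI and 155.6 ± 13.1 in Sham (-0.25, SE 0.07, edgeR adjusted p 0.597), and Kcnj10, the potassium channel Kir4.1, had 0.12 (SE 0.09).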

How the data were processed

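Per the labels' protocols, the 12 CA1 libraries were read from a single end over 50 bases. The submitters' processing notes name FastQC 0.11.5, STAR 2.5.2b, featureCounts, Subread 1.5.1 and mm10 without their order; which annotation and strand setting were used is unstated in the sources used here. The deposited files hold whole-number read counts per gene, not normalized (20764133 to 35643127 per library). Per the file headers, the authors' deposited tables give log2 fold changes, adjusted p-values and library values, the last taken as log2 from their range; how they were made is unstated.

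Symbols, positions and exon lengths came from GENCODE M21 (mm10), matched for 48349 of 48709 IDs. Genes were filtered with filterByExpr (16829 left), scaled by TMM and compared with the robust quasi-likelihood test of edgeR 4.0.16 under R 4.3.3; p-values were two-sided, adjusted by Benjamini-Hochberg and read at 0.05. Log2 CPM used a prior count of 2. Coding sequences were aligned after translation with MAFFT 7.526. The smallest p that the permutations can give is 1e-05.

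Alternatives were DESeq2 1.42.0, limma-voom (limma 3.58.1), other scalings and filters, the replicate number as a block, marker scores, the sex-linked set or 1 surrogate variable (sva 3.50.0) as covariates, each set alone, and leaving out libraries; leaving out Sham 1 and Sham 2 was added after the data were seen. Members and lists were chosen with earlier results of these data known. The genes named were all carbonic anhydrases, the 2 genes of smallest p in each partner list and the 3 genes most like each member. Some genes that this rule names are not reported here. Marker lists were oligodendrocyte and myelin, oligodendrocyte precursor, astrocyte, microglia, endothelium, fibroblast and meninges, choroid plexus, blood, CA1 pyramidal neuron, dentate granule cell, CA2 and CA3 neuron, GABAergic interneuron and ependyma. In counts simulated for the MI against Sham test over 16692 genes, the test recovered 14% of 1.2-fold changes, 72% of 1.5-fold changes, 96% of 2-fold changes and 98% of 3-fold changes, with 7 false calls. In counts simulated for the interaction over 16683 genes, recovery was 0%, 14%, 68% and 90%, with 6 false calls. In both simulations 50 genes were changed at each fold, among genes with a mean of at least 50 counts. Each gene was drawn independently, without the variation that marker genes share between the real libraries. Recovery in the real libraries may therefore differ and is not given by these values. No pair of libraries within a group was a duplicate (chi-square per degree of freedom 6.22 to 79.2 over 30 pairs).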

Additional observations from a re-analysis of the deposited data

Results flagged for a closer look

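Car4 in MI 4 stood at 31.3 CPM, apart from the other MI libraries, where the next highest was 24.6. The gap was 0.64 of the range of the group, above the limit of 0.625 for 6 libraries. It was the 1 case among 16 groups of member values tested, and chance flags about 1 in 20.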

How the results depend on the processing

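edgeR called 0 genes in MI against Sham (1270 at an unadjusted p under 0.05), and 0 without each library in turn (0 to 0), where DESeq2 called 16 (10 higher, 6 lower) and the libraries with Y-linked counts alone 211 (101 higher, 110 lower); the cause was not tested. Members past an adjusted p of 0.05 numbered 0 in each of the 28 alternatives, from which nothing is read because this contrast chose them. The interaction with the sex-linked set called 2 genes, and 0 with library totals alone, 0 with the stricter filter on counts and 0 with limma-voom; the cause was not tested. Car12, Car7, Car8, Car10 and Car14 kept their sign in all 28 alternatives, Car2 and Car4 changed it with the myelin score as a covariate and Car11 in 2. Leaving out 1 library at a time, Car12 ran from -0.54 to -0.32, Car10 from -1.14 to -0.63 and Car14 from 0.31 to 0.44. Replicate numbers did not pair the libraries: deviations of same-numbered libraries correlated at -0.35 to 0.40, and with the replicate number as a block 0 genes were called and Car12 was at -0.45. Depth limits the 5 genes too low to test; its part in the errors of the members was not tested.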
